A study of Mus musculus with 8 samples.

Results

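The genes described here are 39 structural and stress genes of the cardiac sarcomere, the repeating contractile unit of heart muscle, taken by symbol from a table of read counts for 27304 genes. Each of the 39 symbols matched 1 row, and all 39 were among the 20093 genes that passed a filter on low counts. The reads came from bulk sequencing of total heart RNA from male mice of the inbred 129/Sv strain. In the Adenine group (4 libraries), mice were fed a diet with 0.15% adenine for 13 weeks and are labelled as having chronic kidney disease. In the group titled Sham (4 libraries), mice received a standard diet for 13 weeks and are labelled healthy, with no operation described. Dietary adenine injures the renal tubules, and the labels report raised creatinine and urea in plasma and fibrosis of the kidney in adenine-fed mice. The labels do not state the age of the mice, which part of the heart was taken or whether each library came from its own animal, and the series text describes the samples as without replicates. P-values therefore measure only the spread between these libraries, which may be technical.

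In a sarcomere, thin filaments of actin, carrying tropomyosin and the troponin complex, slide past thick filaments of myosin when calcium binds troponin C. Titin spans from the Z-disc, where thin filaments are anchored, to the M-band, where thick filaments are cross-linked. Hearts under load are known to make more skeletal alpha actin and more of the stretch-responsive proteins that bind titin or the Z-disc, such as CARP, encoded by Ankrd1. The comparison of the diets asks whether these transcripts differ in hearts of mice with adenine-induced kidney disease.

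Total counts were 15626620 to 29831706 in Adenine libraries and 24107554 to 33886385 in Sham libraries. The 39 genes took 9.29 ± 0.831% of the counts outside the mitochondrial genome in Adenine and 8.96 ± 0.494% in Sham libraries (SD, n = 4 each). Of all counts they took 5.75 ± 0.550% in Adenine and 5.88 ± 0.176% in Sham libraries, so the order of the diets depends on the denominator. Genes of the mitochondrial genome took 38.0 ± 3.94% of all counts in Adenine and 34.2 ± 2.18% in Sham libraries. All 12 markers of cardiomyocytes outside the 39 genes were detected in every library. Among them Myh6, the adult myosin heavy chain of mouse ventricles, stood at 7094 to 18343 CPM in Adenine and 15483 to 20491 CPM in Sham libraries, where CPM are counts scaled to the adjusted library size. Single libraries stood apart in markers of cell content. Adenine 3 had 2694 CPM of 7 macrophage markers, where Adenine 1, 2 and 4 had 275 to 444 CPM and the Sham libraries 341 to 576 CPM. Adenine 3 also had the lowest sum of the cardiomyocyte markers, 15691 CPM, in a range of 15691 to 29638 CPM in Adenine and 24861 to 35568 CPM in Sham libraries. Sham 2 had 4864 CPM of 5 atrial markers, the highest of the 8 libraries, and Adenine 2 had 105 CPM, the lowest. Nppa made up most of this sum in Adenine 2 (94.7 CPM) and in Adenine 4 (930 of 942 CPM). Myl7, another of the 5, was at 2.08 CPM in Adenine 2, 2.80 CPM in Adenine 4 and 17.0 CPM in Sham 3. In the other libraries Myl7 was at 118 to 1532 CPM. The sum of 4 erythroid genes, 1657 to 3083 CPM in Adenine and 7005 to 26042 CPM in Sham libraries, did not overlap between the diets, and Sham 1 stood far above Sham 2 to 4, which had 7005 to 8055 CPM. The 5 endothelial markers summed to 356 to 499 CPM in Adenine and 472 to 632 CPM in Sham libraries. The 7 fibroblast markers summed to 2115 CPM in Adenine 3, raised by Col1a1 and Col1a2, and to 635 to 976 CPM in Adenine 1, 2 and 4, against 1148 to 1746 CPM in Sham libraries. Of these 7 markers 5 were lower on the adenine diet at an unadjusted p under 0.05, 4 of them without overlap, and DESeq2 called 2. Of the 5 endothelial markers 3 were lower at that p, 2 of them without overlap, and DESeq2 called 1. Of all genes tested 6.63% were lower at that p and 3.84% were lower without overlap, and DESeq2 called 1.43% of its genes. Among the 7 macrophage markers 2 were higher at that p and 0 lower. Lgals3 alone was higher without overlap (log2 fold change 3.27, SE 0.70, edgeR adjusted p = 0.128), and DESeq2 called it (adjusted p = 0.0288). Over all genes tested 10.9% were higher at that p and 3.45% were higher without overlap. The part of cell content in the values below was not tested. Where a gene of the 39 is described, the lowest and highest values with 1 library left out stand beside its log2 fold change as a leave-one-out range. In bulk tissue, fewer cells of a type and less RNA per cell cannot be told apart.

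**Figure D1:**
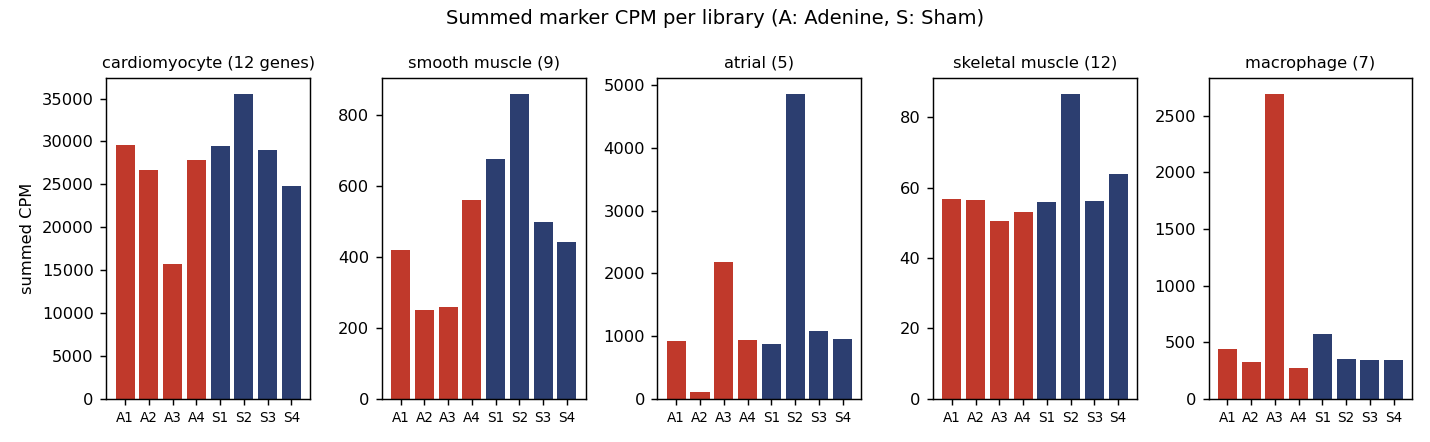
Summed CPM of fixed marker lists in each library, with the number of genes in each list in brackets (A, Adenine, red; S, Sham, blue). Adenine 3 had the highest macrophage sum and the lowest cardiomyocyte sum, and Sham 2 had the highest atrial sum.

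None of the 39 sarcomere genes differed between the diets at an adjusted p under 0.05 in edgeR, a threshold that 0.0398% of all genes tested passed. DESeq2 and limma-voom called 0 of the 39 as well, and the share of all genes that DESeq2 called was 1.43%. At an unadjusted p under 0.05, edgeR had 3 of the 39 genes lower on the adenine diet (Tpm2, Unc45b and Lmod3) and 0 higher. Of all genes tested 6.63% were lower and 10.9% higher at that p. Both DESeq2 and limma-voom had 4 of the 39 genes under that p. Over all genes, 4161 were under it in DESeq2, which was given 26313 genes with any read, and 2699 of 20093 in limma-voom. In none of the 39 genes did the 4 Adenine libraries all lie on one side of the 4 Sham libraries. That held for 7.29% of all genes tested (3.45% higher and 3.84% lower on the adenine diet). The median log2 fold change, Adenine over Sham, was -0.07 over the 39 genes, 0.05 over all genes tested and -0.17 over 2254 genes whose mean level was 50 CPM or more.

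Intervals show how large a difference these libraries leave possible. For 34 of the 39 genes the 95% interval of the fold change lay within a 2-fold difference in either direction, and for 14 within 1.5-fold. The 5 genes with wider intervals were Acta1, Tnni1, Tpm2, Tmod1 and Xirp2. Of the 39 log2 fold changes 11 were positive and 28 negative. Over all genes tested 10897 were positive and 9196 negative, and over the 2254 genes at 50 CPM or more 415 and 1839. The split of the 39 genes depends on the scaling. With upper-quartile factors it was 25 and 14, and 21 and 18 when libraries were scaled to the 12 cardiomyocyte markers. Among the genes left by a filter of 1 CPM in 4 libraries it was 19 and 20, and without Sham 2 it was 20 and 19. The 12 cardiomyocyte markers include Myh6, Actn2 and Myoz2, which are sarcomere genes too. Scaling to them can take away part of a change that sarcomere genes share. The upper-quartile and cardiomyocyte scalings put the median of all genes at 0.20 and 0.16, and the median of the 39 genes at 0.08 and 0.03. Under both the median of the 39 genes lay below that of all genes tested, which is given without a test. Against the genes at 50 CPM or more the order was reversed in the main edgeR fit, with medians of -0.07 and -0.17. That comparison was not made under the other scalings.

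**Figure D2:**
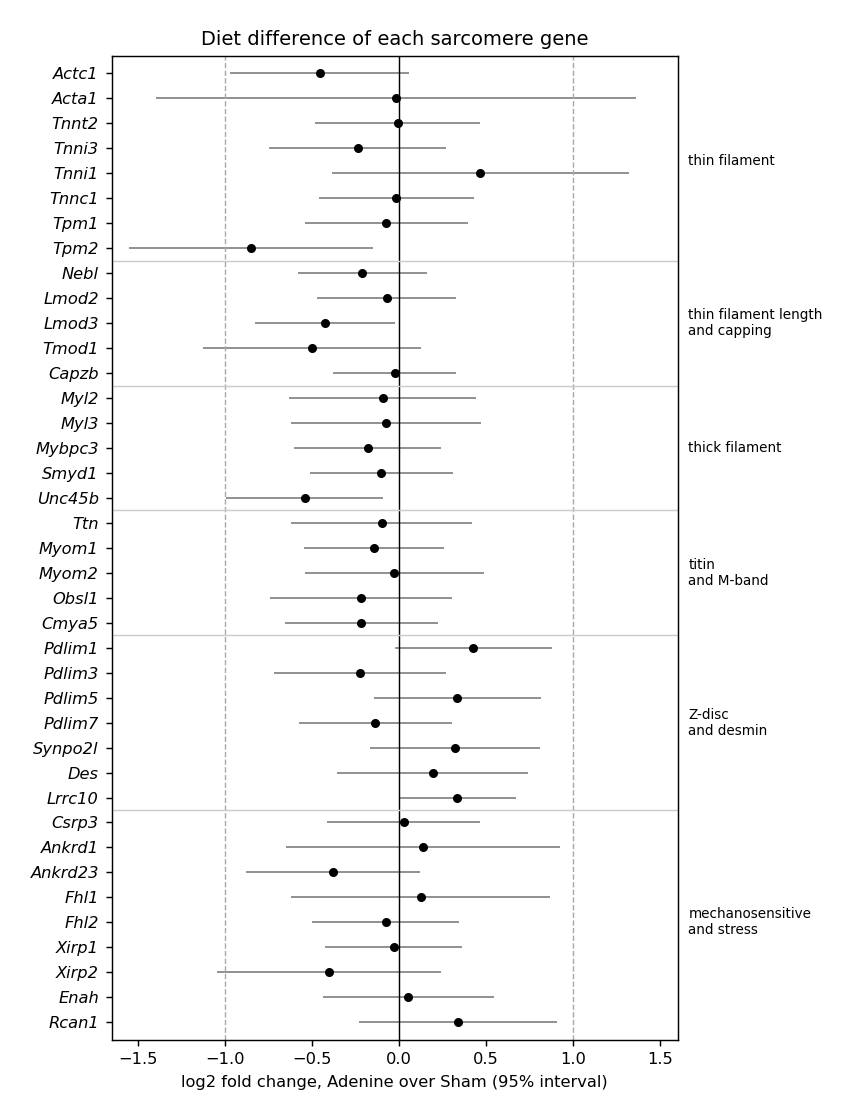
Log2 fold change of each sarcomere gene, Adenine over Sham, with its 95% interval from the edgeR fit over all genes, grouped by role. Dashed lines mark a 2-fold difference, and 3 intervals, those of Tpm2, Lmod3 and Unc45b, lay wholly below 0.

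Per kilobase of merged exons, transcript levels spanned more than 3 orders of magnitude across the 39 genes. The order below depends on the length used, since merged exons join all annotated transcripts of a gene. Tnnt2, for example, has 7752 bases of merged exons, which turn 9399 CPM in Adenine libraries into 1212.5 per kilobase. Actc1, which encodes cardiac alpha actin, had 2705 ± 607 in Adenine and 3711 ± 639 in Sham libraries (CPM per kilobase, SD, n = 4 each), and Tnnc1, which encodes the calcium sensor troponin C, had 3481 ± 604 in Adenine and 3519 ± 218 in Sham libraries. Myl2, the regulatory light chain of ventricular myosin, followed with 3143 ± 864 in Adenine and 3356 ± 216 in Sham libraries on the same scale. In Sham libraries each pair of these 3 genes differed by less than the larger of its SDs. In Adenine libraries Actc1 and Tnnc1 differed by more than that, with Myl2 between them. At the other end, Tnni1, the slow skeletal troponin I that hearts make before birth, had 0.773 ± 0.272 in Adenine and 0.555 ± 0.252 in Sham libraries.

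The thin filament group, 8 genes, took 4.83 ± 0.453% in Adenine and 4.78 ± 0.101% in Sham libraries of counts outside the mitochondrial genome (SD, n = 4 each). Actc1 had 5044, 3691, 3392 and 5380.2 CPM in Adenine 1 to 4, against 6719, 6966, 5591 and 4739.8 CPM in Sham 1 to 4. Sham 1 to 3 were above all 4 Adenine libraries, while Sham 4 lay among them. This gave a log2 fold change of -0.46 (SE 0.24, 95% interval -0.97 to 0.06, adjusted p = 0.318, leave-one-out range -0.56 without Adenine 4 to -0.36 without Adenine 3). Its relative Acta1, the skeletal alpha actin that is known to be re-expressed in loaded hearts, had 769, 166, 523 and 1179 CPM in Adenine 1 to 4, against 269, 179, 1671 and 548 CPM in Sham 1 to 4. Both diets covered nearly the same range, 7.11-fold among Adenine and 9.35-fold among Sham libraries, the widest of the 39 genes in each. The log2 fold change of Acta1 was -0.02 (SE 0.64, 95% interval -1.39 to 1.36, adjusted p = 0.990, leave-one-out range -0.43 without Adenine 4 to 0.99 without Sham 3), so single libraries set its direction.

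The share of Acta1 in the reads of both alpha actins was 13.2, 4.30, 13.4 and 18.0% in Adenine 1 to 4, against 3.85, 2.50, 23.0 and 10.4% in Sham 1 to 4. Sham 3 and Adenine 4 had the highest shares and Sham 2 the lowest, and the diets overlapped. The difference was 0.68 in log2 ratio (exact two-sided permutation p = 0.514, adjusted p = 0.514), adjusted over the 4 isoform ratios described here. The 2 mRNAs encode nearly identical proteins, but 0 of the 1397 windows of 50 bases in the longest annotated Acta1 transcript occurred in an Actc1 transcript. On the GRCm38 assembly, Acta1 (chromosome 8, 123891769 to 123894751, ENSMUSG00000031972) and Actc1 (chromosome 2, 114047282 to 114053548, ENSMUSG00000068614) lie on different chromosomes.

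Because Acta1 had the widest range of the 39 genes in both diets, the stretches before the RefSeq starts of both alpha actin genes are shown here, from GRCm38.p6, each on the minus strand (Acta1 chr8:123894776-123894895, 120 bases; Actc1 chr2:114052888-114052995, 108 bases, ending before an annotated exon). Capitals mark matches to the CArG box, the element bound by serum response factor (10 bases in each promoter), and in Acta1 also to M-CAT, CATTCC, the element bound by TEAD factors (6 bases).
Acta1: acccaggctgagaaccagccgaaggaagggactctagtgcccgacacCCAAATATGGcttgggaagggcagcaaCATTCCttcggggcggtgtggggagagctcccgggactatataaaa
Actc1: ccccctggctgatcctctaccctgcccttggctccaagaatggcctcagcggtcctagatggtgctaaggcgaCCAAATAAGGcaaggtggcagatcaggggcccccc
In windows that run from 250 bases before to 50 bases after the RefSeq start, searched on both strands, a CArG box was present for 7 of 36 matched genes (8 of their 49 windows, 16.3%), against 1.63% of all 32851 windows. M-CAT was present for 11 of 36 genes (24.5% of windows, against 14.7% of all). The 7 genes with a CArG box were Acta1, Actc1, Fhl1, Fhl2, Myl3, Myom1 and Nebl. Their log2 fold changes were -0.02, -0.46, 0.12, -0.08, -0.07, -0.14 and -0.21, and none passed the test. A match describes letters in a window, not a bound site.

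**Figure D3:**
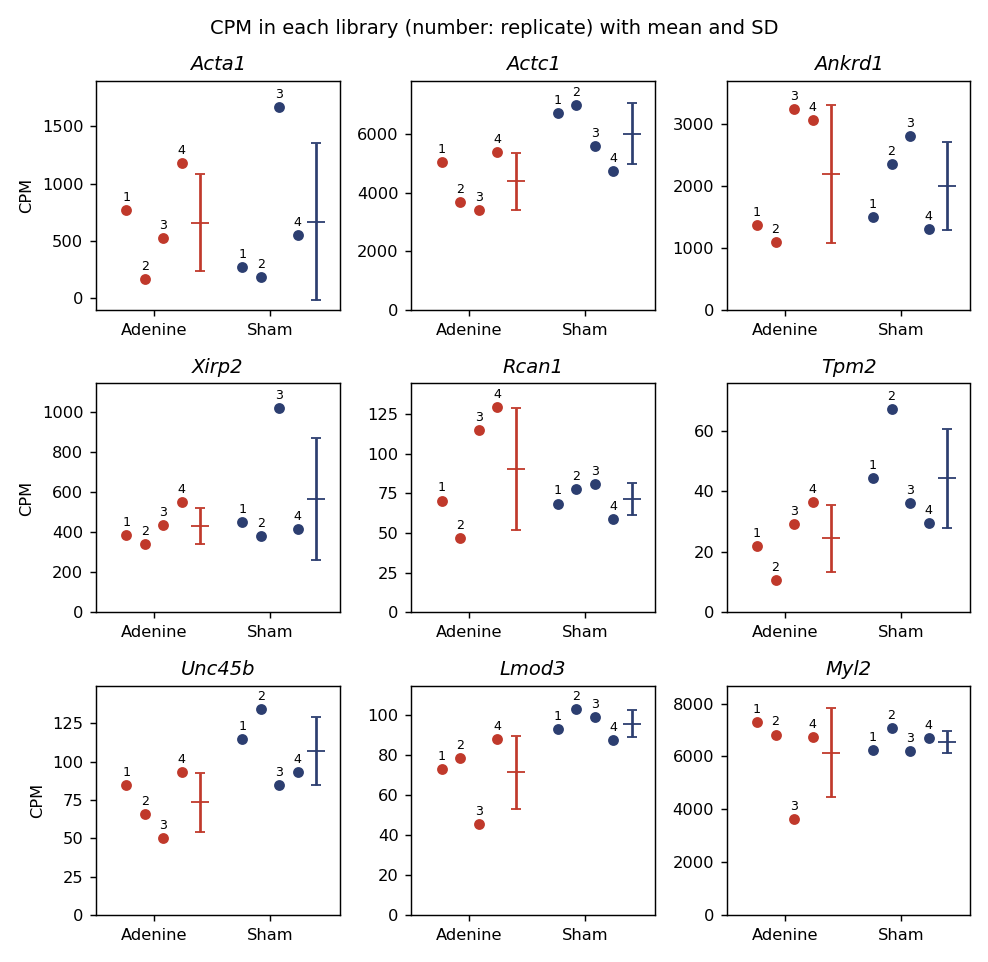
CPM of 9 sarcomere genes in each library (numbers are replicates), with mean and SD beside the points. The diets overlapped in all 9, and single libraries carried the extremes, such as Sham 3 for Acta1 and Xirp2 and Adenine 3 for Myl2.

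Of the 4 troponin genes, Tnnt2 and Tnnc1 differed least between the diets. Tnnt2, which ties troponin to tropomyosin, had 9399 ± 1132 CPM in Adenine and 9445 ± 1068 CPM in Sham libraries (SD, n = 4 each), with a log2 fold change of -0.01 (SE 0.22, 95% interval -0.48 to 0.47, adjusted p = 0.987, leave-one-out range -0.10 without Adenine 1 to 0.06 without Sham 2). Tnnc1 had a log2 fold change of -0.02 (SE 0.21, leave-one-out range -0.10 without Adenine 1 to 0.09 without Adenine 2). Cardiac troponin I, encoded by Tnni3, is the inhibitory subunit and had 4685, 3559.8, 2548 and 3794 CPM in Adenine 1 to 4, against 4153, 5101, 3539 and 4405 CPM in Sham 1 to 4. Adenine 3 was the lowest and Sham 2 the highest, and the log2 fold change was -0.24 (SE 0.23, 95% interval -0.74 to 0.27, adjusted p = 0.546, leave-one-out range -0.40 without Adenine 1 to -0.11 without Adenine 3).

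Tnni1 was counted at only 23 to 81 reads per library. Its level was 3.04, 3.91, 1.56 and 2.62 CPM in Adenine 1 to 4, against 1.68, 2.74, 0.857 and 2.71 CPM in Sham 1 to 4. Adenine 2 was the highest and Sham 3 the lowest library, with overlap between the diets. Adenine over Sham, the log2 fold change was 0.47 (SE 0.40, 95% interval -0.39 to 1.32, adjusted p = 0.488, leave-one-out range 0.20 without Sham 3 to 0.66 without Adenine 3). As a share of the reads of both troponin I genes, Tnni1 took 0.0648, 0.110, 0.0612 and 0.0689% in Adenine 1 to 4, against 0.0403, 0.0538, 0.0242 and 0.0616% in Sham 1 to 4. Adenine 1, 2 and 4 lay above all Sham libraries, and Adenine 3 lay just below Sham 4 and above the other Sham libraries. The difference was 0.80 in log2 ratio (exact two-sided permutation p = 0.0571, adjusted p = 0.171), where the smallest p that 70 assignments allow is 0.0286. Without Sham 4 the exact p was 0.0286 too, the smallest that 35 assignments give. Sham 4 was the only Sham library above an Adenine library, so leaving it out separates the diets and fixes that p in advance. The range over all omissions is given in the last section. Adenine 2 also had the highest levels of Myh4, Actn3 and Atp2a1, genes of fast skeletal muscle, with Myh4 at 7.09 CPM in Adenine 2, where Adenine 1, 3 and 4 had 2.04 to 5.50 CPM and Sham libraries 0.982 to 2.79 CPM. The most abundant markers of the list ran the other way, with Casq1 at 10.8 to 17.9 CPM in Adenine and 15.1 to 34.9 CPM in Sham libraries, and Myl1 at 11.3 CPM in Adenine 2, the lowest of the 8 libraries. Of 11 skeletal muscle markers tested, 9 had positive log2 fold changes and none passed the adjusted threshold. The summed level of all 12 skeletal muscle markers was 50.5 to 56.9 CPM in Adenine and 56.0 to 86.7 CPM in Sham libraries, with 2 of the 12 below 1 CPM in every library, and its part in the Tnni1 values was not tested.

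Tropomyosin lies along actin and gates myosin binding. Tpm1, the main tropomyosin gene of the mouse heart, had 7674 ± 676 CPM in Adenine and 8068 ± 1140.0 CPM in Sham libraries (SD, n = 4 each) and a log2 fold change of -0.07 (SE 0.22, 95% interval -0.54 to 0.39, adjusted p = 0.853, leave-one-out range -0.16 without Sham 4 to 0.01 without Sham 2). Tpm2, which encodes beta tropomyosin, had 21.9, 10.6, 29.1 and 36.5 CPM in Adenine 1 to 4, against 44.4, 67.2, 36.3 and 29.6 CPM in Sham 1 to 4. Adenine 2 was the lowest and Sham 2 the highest library, and Adenine 4 reached above Sham 3 and Sham 4. With a log2 fold change of -0.85 (SE 0.32, 95% interval -1.55 to -0.15, adjusted p = 0.263, leave-one-out range -1.08 without Adenine 4 to -0.57 without Sham 2), Tpm2 had the lowest p of the 39 genes. Its adjusted p over the 19 alternatives ran from 0.0967 (without Adenine 3) to 0.556. The Tpm2 share of tropomyosin reads was 0.260, 0.157, 0.373 and 0.468% in Adenine 1 to 4, against 0.544, 0.703, 0.453 and 0.440% in Sham 1 to 4. The difference was -0.86 in log2 ratio (exact two-sided permutation p = 0.0857, adjusted p = 0.171), and without Adenine 4 the exact p was 0.0286, the smallest that 35 assignments give. Adenine 4 was the only Adenine library within the Sham range, so leaving it out separates the diets and fixes that p in advance. The range over all omissions is given in the last section.

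Beta tropomyosin is also made by smooth muscle, and the markers of that cell type had negative log2 fold changes too. The summed level of 9 smooth muscle markers was 421, 249.6, 260.2 and 561 CPM in Adenine 1 to 4, against 677, 861, 500.3 and 444 CPM in Sham 1 to 4. Adenine 2 and Adenine 3 were the lowest and Sham 2 the highest, and Adenine 4 overlapped the Sham libraries. All 9 had negative log2 fold changes, 6 of them at an unadjusted p under 0.05, from -1.32 for Cnn1 (calponin) to -0.22, with -0.91 for Acta2 (smooth muscle actin) and -0.97 for Myh11 (smooth muscle myosin). Of all genes tested 6.63% were lower at that p, and the diets overlapped in all 9 markers. None of the 9 passed the adjusted threshold, and their part in the Tpm2 values was not tested.

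**Figure D4:**
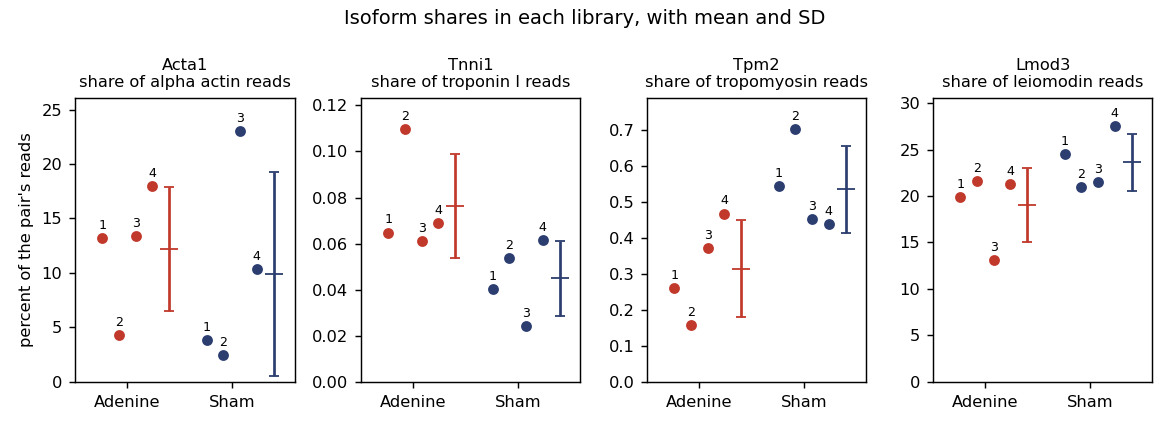
Share of one isoform in the summed reads of a pair, in percent, for each library (numbers are replicates), with mean and SD. The Tnni1 share averaged 0.0762% in Adenine and 0.0450% in Sham libraries and the Tpm2 share 0.314% and 0.535%, and the diets overlapped in all 4 pairs.

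Thin filament length is set by proteins at the ends of the filament. The 5 genes of this group had log2 fold changes of -0.50 to -0.03, all negative here and 2 of the 5 positive with upper-quartile factors or with cardiomyocyte scaling. Lmod3, a leiomodin that elongates thin filaments at their pointed end, had 73.2, 78.8, 45.7 and 88.0 CPM in Adenine 1 to 4, against 93.0, 103, 99.0 and 87.8 CPM in Sham 1 to 4. Adenine 3 was the lowest library, and Adenine 4 lay just above Sham 4. In edgeR, its log2 fold change was -0.42 (SE 0.19, 95% interval -0.83 to -0.02, adjusted p = 0.278, leave-one-out range -0.54 without Adenine 4 to -0.27 without Adenine 3). Lmod2, the leiomodin more abundant in these libraries per kilobase (153 ± 8.72 in Adenine and 160.5 ± 36.7 in Sham libraries, CPM per kilobase), had -0.07 (SE 0.18, leave-one-out range -0.20 without Sham 4 to 0.04 without Sham 2).

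Of the reads of both leiomodins, Lmod3 took 19.9, 21.6, 13.1 and 21.3% in Adenine 1 to 4, against 24.6, 20.9, 21.5 and 27.6% in Sham 1 to 4. The share was lowest in Adenine 3 and highest in Sham 4, and Adenine 2 and Adenine 4 lay above Sham 2. The difference was -0.42 in log2 ratio (exact two-sided permutation p = 0.143, adjusted p = 0.190). Tropomodulin 1, encoded by Tmod1, caps the pointed end and had 44.7, 41.2, 39.5 and 41.0 CPM in Adenine 1 to 4, against 67.6, 94.4, 47.1 and 26.0 CPM in Sham 1 to 4. The 4 Adenine libraries lay close together, inside the much wider range of the Sham libraries. For Tmod1 the log2 fold change was -0.50 (SE 0.29, 95% interval -1.12 to 0.13, adjusted p = 0.347, leave-one-out range -0.75 without Sham 4 to -0.18 without Sham 2). Exons of Tstd2 on the opposite strand overlap 32.6% of the Tmod1 exons, and without a stated strand setting the reads of the 2 genes cannot be told apart there. Nebl, which encodes nebulette of the Z-disc, and Capzb, a subunit of the protein that caps the barbed end, had -0.21 (SE 0.17, leave-one-out range -0.30 without Sham 4 to -0.10 without Sham 2) and -0.03 (SE 0.16, leave-one-out range -0.11 without Adenine 1 to 0.08 without Adenine 2).

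Of the 5 thick filament genes, 4 were lowest of the 8 libraries in Adenine 3, and Smyd1 was lowest in Sham 4. Myl2 had 7308, 6827, 3629 and 6749 CPM in Adenine 1 to 4, against 6228, 7077, 6187 and 6688 CPM in Sham 1 to 4. Adenine 1, 2 and 4 lay within or just above the Sham range, and Adenine 3 lay far below the next lowest library, Sham 3. The fitted log2 fold change was -0.09 (SE 0.25, 95% interval -0.63 to 0.44, adjusted p = 0.830, leave-one-out range -0.22 without Adenine 1 to 0.08 without Adenine 3). Myl3, the essential light chain of ventricular myosin, had 5193, 3876, 2379 and 4628 CPM in Adenine 1 to 4, against 3688, 4217, 4262 and 4742 CPM in Sham 1 to 4, with Adenine 3 again the lowest. Its log2 fold change was -0.07 (SE 0.25, leave-one-out range -0.25 without Adenine 1 to 0.10 without Adenine 3). Mybpc3, which encodes the myosin-binding protein that tunes cross-bridges, had -0.18 (SE 0.20, leave-one-out range -0.25 without Adenine 1 to -0.08 without Adenine 3), with 1549 CPM in Adenine 3 and 2001 to 2283 CPM in Adenine 1, 2 and 4, against 2053 to 2392 CPM in Sham libraries.

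Myosin also needs helpers to fold. Unc45b, which encodes the muscle chaperone of the myosin motor, had 85.0, 65.7, 49.9 and 93.2 CPM in Adenine 1 to 4, against 115, 134, 84.8 and 93.6 CPM in Sham 1 to 4. Adenine 3 and Adenine 2 were the lowest libraries, and Adenine 1 and Adenine 4 lay just above Sham 3. The log2 fold change was -0.54 (SE 0.21, 95% interval -0.99 to -0.09, adjusted p = 0.264, leave-one-out range -0.67 without Adenine 4 to -0.40 without Adenine 3). Smyd1, a methyltransferase that binds myosin during sarcomere assembly, had 247 ± 25.0 CPM in Adenine and 264 ± 62.3 CPM in Sham libraries (SD, n = 4 each) and a log2 fold change of -0.10 (SE 0.19, leave-one-out range -0.24 without Sham 4 to 0.04 without Sham 2). On GRCm38, Unc45b lies on chromosome 11, 82910550 to 82943403, ENSMUSG00000018845, Lmod3 on chromosome 6, 97238534 to 97252759, ENSMUSG00000044086, and Tpm2 on chromosome 4, 43514711 to 43523765, ENSMUSG00000028464.

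Titin and M-band genes had log2 fold changes of -0.22 to -0.03. Ttn, whose protein is the elastic spring of the sarcomere, had 3967, 4399.6, 3173 and 3385 CPM in Adenine 1 to 4, against 3334, 3688, 5732 and 3239 CPM in Sham 1 to 4. Sham 3 was the highest, and the other 3 Sham libraries lay within the Adenine range. This gave a log2 fold change of -0.10 (SE 0.24, 95% interval -0.62 to 0.42, adjusted p = 0.813, leave-one-out range -0.19 without Sham 4 to 0.13 without Sham 3). The M-band cross-linkers Myom1 and Myom2 had -0.14 (SE 0.18, leave-one-out range -0.24 without Adenine 1 to -0.07 without Adenine 3) and -0.03 (SE 0.24, leave-one-out range -0.15 without Adenine 4 to 0.22 without Sham 2). Obsl1, an obscurin-like protein that binds titin, had -0.22 (SE 0.24, leave-one-out range -0.51 without Adenine 1 to -0.04 without Adenine 3), with 52.0 CPM in Adenine 3 and 131 CPM in Adenine 1, the lowest and highest of the 8 libraries. Cmya5, which encodes myospryn, a desmin-binding protein, had -0.22 (SE 0.20, leave-one-out range -0.36 without Sham 4 to -0.07 without Sham 2). Antisense exons overlap 20.7% of its own. All 5 values of this group were negative here, and with upper-quartile factors 3 of the 5 were positive.

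In the Z-disc and desmin group, 5 of 7 log2 fold changes were positive with TMM, DESeq2 and upper-quartile factors and with cardiomyocyte scaling, and 4 of 7 without Adenine 3. Its share of counts outside the mitochondrial genome was 0.480 ± 0.123% in Adenine and 0.376 ± 0.0638% in Sham libraries (SD, n = 4 each). Lrrc10, a heart-restricted leucine-rich repeat protein, had 93.1, 79.7, 68.5 and 101 CPM in Adenine 1 to 4, against 62.4, 75.8, 72.2 and 61.5 CPM in Sham 1 to 4. Adenine 1, 2 and 4 lay above all Sham libraries and Adenine 3 within their range. Adenine over Sham, the log2 fold change was 0.33 (SE 0.16, 95% interval -0.00 to 0.67, adjusted p = 0.289, leave-one-out range 0.25 without Adenine 4 to 0.42 without Adenine 3). Pdlim1, a PDZ-LIM protein that binds alpha-actinin, had 22.6, 15.4, 28.3 and 13.8 CPM in Adenine 1 to 4, against 16.1, 15.9, 13.8 and 14.0 CPM in Sham 1 to 4. Adenine 1 and Adenine 3 stood above the Sham libraries, and Adenine 2 lay within their range and Adenine 4 just below it. For Pdlim1 the log2 fold change was 0.43 (SE 0.21, 95% interval -0.02 to 0.88, adjusted p = 0.300, leave-one-out range 0.20 without Adenine 3 to 0.59 without Adenine 4).

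Pdlim5, another alpha-actinin partner, had 682, 483, 958 and 688 CPM in Adenine 1 to 4, against 453, 607, 670.0 and 498 CPM in Sham 1 to 4, with Adenine 3 the highest. Its log2 fold change was 0.33 (SE 0.22, leave-one-out range 0.14 without Adenine 3 to 0.48 without Adenine 2). Des, the gene of desmin, the intermediate filament that links Z-discs, had 2629.9 CPM in Adenine 3, the highest of the 8 libraries, and 1209 CPM in Adenine 2, the lowest. Its log2 fold change was 0.19 (SE 0.25, leave-one-out range -0.04 without Adenine 3 to 0.38 without Sham 3). Synpo2l, an actin-binding Z-disc protein, had 0.32 (SE 0.23, leave-one-out range 0.15 without Adenine 4 to 0.50 without Adenine 2), with Adenine 4 and Adenine 3 highest. Pdlim3 and Pdlim7 had -0.22 (SE 0.23, leave-one-out range -0.37 without Sham 3 to 0.01 without Sham 2) and -0.14 (SE 0.20, leave-one-out range -0.32 without Adenine 3 to 0.04 without Adenine 2). For the desmin and Pdlim5 values, the high level in Adenine 3 stood beside the highest macrophage sum and low smooth muscle sum given above, and their part was not tested.

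The diets overlapped in all 9 mechanosensitive and stress genes, and none passed the test. Ankrd1 encodes CARP, a titin-binding protein that rises with stretch, and had 1374, 1088, 3238 and 3057 CPM in Adenine 1 to 4, against 1504, 2351, 2807 and 1304 CPM in Sham 1 to 4. Adenine 3 and Adenine 4 were the highest and Adenine 2 the lowest library, with the Sham libraries between. In edgeR, its log2 fold change was 0.14 (SE 0.36, 95% interval -0.65 to 0.92, adjusted p = 0.833, leave-one-out range -0.12 without Adenine 3 to 0.39 without Sham 3). Ankrd23, its relative, had 11.4, 7.95, 13.0 and 13.6 CPM in Adenine 1 to 4, against 16.2, 15.0, 19.7 and 9.06 CPM in Sham 1 to 4. Sham 3 was the highest and Adenine 2 the lowest library. The fitted log2 fold change was -0.38 (SE 0.23, 95% interval -0.88 to 0.12, adjusted p = 0.365, leave-one-out range -0.56 without Sham 4 to -0.19 without Sham 3). A gene that is not in the table, Gm42417, shares 78.2% of the Ankrd23 exons on the same strand, so the Ankrd23 count is uncertain. Csrp3, which encodes the muscle LIM protein of the Z-disc, had 1114, 1018, 1257 and 1188 CPM in Adenine 1 to 4, against 1094, 1519, 960.3 and 922 CPM in Sham 1 to 4. Sham 2 was the highest and Sham 4 the lowest, and the log2 fold change was 0.03 (SE 0.20, 95% interval -0.41 to 0.46, adjusted p = 0.948, leave-one-out range -0.06 without Sham 4 to 0.20 without Sham 2).

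Xirp1 and Xirp2 encode Xin proteins, which bind actin at the intercalated disc. Xirp1 had 62.5, 69.6, 52.4 and 80.6 CPM in Adenine 1 to 4, against 78.1, 80.7, 60.3 and 51.5 CPM in Sham 1 to 4 and a log2 fold change of -0.03 (SE 0.18, 95% interval -0.42 to 0.36, adjusted p = 0.931, leave-one-out range -0.15 without Sham 4 to 0.06 without Adenine 3). The ranges of the diets nearly coincided. Xirp2 had 387, 342, 437 and 553 CPM in Adenine 1 to 4, against 453, 379, 1020.1 and 417 CPM in Sham 1 to 4. Sham 3 was far above all other libraries, which overlapped. For Xirp2 the log2 fold change was -0.40 (SE 0.30, 95% interval -1.04 to 0.24, adjusted p = 0.434, leave-one-out range -0.56 without Sham 2 to 0.06 without Sham 3). Sham 3 was also the highest of the 8 libraries for Acta1 and Ttn. The 120 bases before the Xirp2 start (GRCm38.p6, chr2:67445882-67446001, plus strand, from RefSeq) are shown because of this swing, with the match to the MEF2 element in capitals.
Xirp2: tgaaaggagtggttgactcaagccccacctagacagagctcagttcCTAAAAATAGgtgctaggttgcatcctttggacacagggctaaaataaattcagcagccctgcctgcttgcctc
A MEF2 element was present on either strand for 5 of the 36 matched genes (12.2% of their 49 windows, against 3.19% of all windows), namely Fhl2, Mybpc3, Synpo2l, Ttn and Xirp2. Their log2 fold changes were -0.08, -0.18, 0.32, -0.10 and -0.40.

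Rcan1, an inhibitor of calcineurin whose transcription calcineurin activates, had 70.5, 46.7, 115 and 129 CPM in Adenine 1 to 4, against 68.6, 78.0, 80.7 and 58.7 CPM in Sham 1 to 4. Adenine 3 and Adenine 4 lay above all Sham libraries, Adenine 1 within their range and Adenine 2 below it. The log2 fold change was 0.34 (SE 0.26, 95% interval -0.23 to 0.91, adjusted p = 0.452, leave-one-out range 0.14 without Adenine 4 to 0.55 without Adenine 2). Enah, which promotes actin polymerisation, had 173, 138, 245 and 219.7 CPM in Adenine 1 to 4, against 147, 194, 258 and 148 CPM in Sham 1 to 4. Sham 3 was the highest and Adenine 2 the lowest library here too. Its log2 fold change was 0.05 (SE 0.23, 95% interval -0.44 to 0.54, adjusted p = 0.900, leave-one-out range -0.09 without Adenine 3 to 0.28 without Sham 3). The LIM-only genes Fhl1 and Fhl2 encode proteins that bind titin. Fhl1 was highest in Adenine 3 (272 CPM) and lowest in Adenine 2 (79.5 CPM), with a log2 fold change of 0.12 (SE 0.34, leave-one-out range -0.18 without Adenine 3 to 0.45 without Sham 2). Fhl2 had 1004 ± 109 CPM in Adenine and 1059 ± 202 CPM in Sham libraries (SD, n = 4 each) and a log2 fold change of -0.08 (SE 0.19, leave-one-out range -0.19 without Sham 4 to 0.01 without Sham 3).

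**Figure D5:**
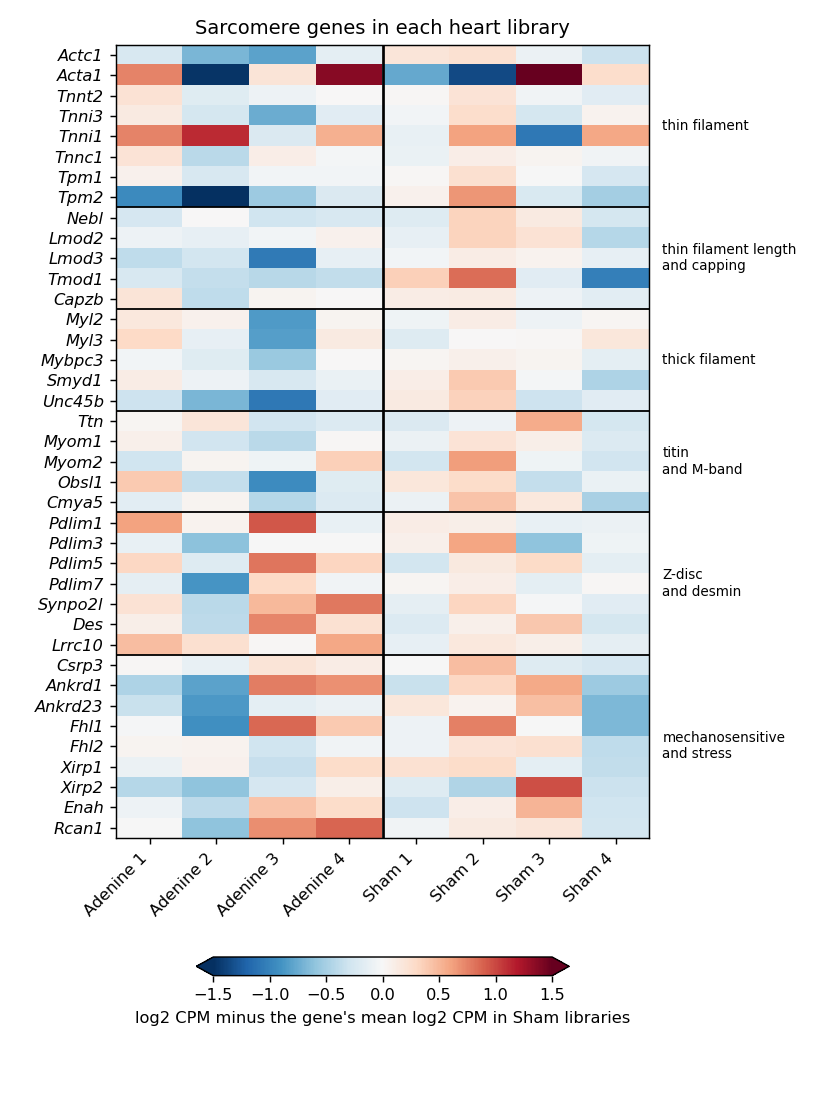
Log2 CPM of each sarcomere gene in each library, minus the mean log2 CPM of that gene in Sham libraries, with the colour scale ending at 1.5 in either direction. Rows are grouped by role, and differences follow single libraries (low Myl2, Myl3, Unc45b and Lmod3 with high Des, Pdlim5 and Ankrd1 in Adenine 3, for example) more visibly than the line between the diets.

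The median SD of log2 CPM was 0.328 among Adenine and 0.289 among Sham libraries over the 39 genes. Over all genes tested it was 0.372 among Adenine and 0.299 among Sham libraries, and over the 2254 genes at 50 CPM or more it was 0.241 and 0.213. Within the Adenine group, Adenine 2 was the lowest library for 19 of the 39 genes, Adenine 3 for 18, and Adenine 4 the highest for 15. Within the Sham group, Sham 2 was the highest for 27 genes and Sham 4 the lowest for 25. Sham 2 had the highest and Sham 4 the lowest sum of cardiomyocyte markers among Sham libraries, 35568 and 24861 CPM. These orders depend on the scaling. The TMM factor was 0.871 in Sham 2 and 1.09 in Sham 4, and as a share of counts outside the mitochondrial genome the 39 genes took 8.99% in Sham 2 and 8.97% in Sham 4.

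Other genes of the same machinery were counted in 7 lists of 79 genes in all, none of them among the 39, with 1 gene in 2 lists. 1 of the 79 rose on the adenine diet, 0 fell, and 2 and 6 were higher and lower at an unadjusted p under 0.05. Of all genes tested 0.0398% rose and 0% fell, and 10.9% and 6.63% were higher and lower at that unadjusted p. In either direction this was 10.1% of the 79 genes and 17.5% of all genes tested. The gene that rose was Myot, which encodes myotilin of the Z-disc, with 63.6, 65.7, 55.8 and 56.3 CPM in Adenine 1 to 4, against 19.6, 27.8, 32.6 and 23.8 CPM in Sham 1 to 4. The diets did not overlap, and the log2 fold change was 1.22 (SE 0.16, 95% interval 0.86 to 1.57, adjusted p = 0.0182). Myot lost the call without Adenine 1 and without any one of the 4 Sham libraries. Of the 12 other genes of the Z-disc list none passed. Myoz1, which encodes a calsarcin of fast muscle and is named after its values were seen, was counted at only 0.782 to 2.17 CPM. Its diets did not overlap, at a log2 fold change of 0.72 (SE 0.35, adjusted p = 0.298). Without overlap, 2 of the 79 genes were higher (Myot and Myoz1) and 2 lower (Wwtr1 and Ilk). This held for 3.45% (higher) and 3.84% (lower) of all genes tested. Of 10 thick filament and M-band genes, Myom3, a myomesin, had 0.59 (SE 0.21, adjusted p = 0.250) and Mybphl, a relative of myosin-binding protein C known from atria, -2.42 (SE 0.98, adjusted p = 0.269). Mybphl had 103 CPM in Sham 2, the library with the highest atrial sum, where Adenine libraries had 1.20 to 10.9 CPM and Sham 1, 3 and 4 had 1.45 to 10.8 CPM.

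The remaining 5 lists had no gene past the threshold in edgeR. Beside their medians below, the median log2 fold change was 0.05 over all genes tested and -0.17 over genes at 50 CPM or more. The 10 factors around SRF, MEF2 and YAP had a median log2 fold change of -0.17, with the lowest p for Yap1 at -0.41 (SE 0.16, adjusted p = 0.263) and its relative Wwtr1 at -0.37 (SE 0.15, adjusted p = 0.271), the mechanosensitive co-activators YAP and TAZ. Among 11 calcineurin and NFAT genes, Akap5, an anchor of calcineurin, had -0.94 (SE 0.30, adjusted p = 0.228) and Ppp3cb, a catalytic subunit, -0.33 (SE 0.15, adjusted p = 0.283). DESeq2 called Akap5 lower (adjusted p = 0.0374). Sarcomere chaperone and turnover genes had a median of -0.15 over 10 genes, with the lowest p for Hspb8 at -0.42 (SE 0.19, adjusted p = 0.283) and Sqstm1 at -0.31 (SE 0.17, adjusted p = 0.329). Costamere genes, which anchor Z-discs to the membrane, had a median of -0.15 over 16 genes, with Ilk at -0.71 (SE 0.40, adjusted p = 0.341), counted at no more than 1.01 CPM, and Parva at -0.26 (SE 0.15, adjusted p = 0.346). Immediate targets of SRF and YAP had a median of -0.13 over 10 genes, with the lowest p for Egr1 at -0.43 (SE 0.24, adjusted p = 0.338) and Ccn2 at 0.67 (SE 0.43, adjusted p = 0.378).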

How the data were processed

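Mouse heart RNA, 4 libraries per diet, was profiled by bulk sequencing. The authors deposited unscaled whole-number counts of reads for each gene. FastQC 0.11.9, STAR 2.7.6a and GRCm38.p6 are named per the submitters' processing notes. The counting program, annotation and strand setting were not given in the sources used here. Testing used edgeR 4.0.16 in R 4.3.3 (filterByExpr, TMM factors, quasi-likelihood F-test, Benjamini-Hochberg adjustment over 20093 genes, threshold 0.05). CPM use library sizes multiplied by the TMM factors, and standard errors were derived from the F statistic. Coordinates and merged exon lengths came from GENCODE M21, which matched 27225 identifiers, and promoters from RefSeq, which matched 36 of 39 genes. The 4 isoform ratios were tested by exact permutation over 70 assignments. The 39 genes and the lists were chosen with earlier results of these data known. Named in full were genes called, the 8 with the lowest p and 12 fixed by name, and per list the genes called or the 2 with the lowest p. Alternatives were DESeq2 1.42.0, limma-voom (limma 3.58.1), other scalings and filters, a replicate block and each library left out. Fits were tested on simulated data. Replicates differed by more than sampling noise (chi-square per gene 20.0 to 96.8), and all 8 were kept as separate libraries.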

Additional observations from a re-analysis of the deposited data

Results flagged for a closer look

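Of 86 sets of 4 libraries (39 genes and 4 isoform shares in each diet), 3 held a library far from the other 3, and chance alone flags about 5% of such sets. Myl2 was at 3629 CPM in Adenine 3, where Adenine 1, 2 and 4 had 6749 to 7308 CPM. Xirp2 was at 1020.1 CPM in Sham 3, against 379 to 453 CPM in the other Sham libraries. The Tnni1 share of troponin I reads was 0.110% in Adenine 2, against 0.0612 to 0.0689% in the other Adenine libraries, and rested on 64 Tnni1 reads.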

How the results depend on the processing

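The count of 0 called among the 39 genes, in either direction, held under 18 alternative fits, at an adjusted p under 0.1 with all 8 libraries in edgeR, and with cardiomyocyte scaling and Adenine 3 left out together, which was chosen after seeing the data. Without Adenine 3, Tpm2 had an adjusted p of 0.0967. Over all genes the count was 8 higher and 0 lower, and it was 18 and 1 with upper-quartile factors, 120 and 152 in DESeq2, 5 higher in limma-voom, 6 lower with robust edgeR, 1 lower without a filter, 21 and 10 at an adjusted p under 0.1, and 24 and 25 with cardiomyocyte scaling without Adenine 3. Leaving out 1 library gave 1 to 37 genes higher and 0 to 30 lower. The causes were not tested. Of the 79 other sarcomere genes, DESeq2 called 1 lower, and 0 to 1 were higher with 1 library left out. The median over the 39 genes was 0.077 with upper-quartile factors and -0.15 to 0.01 with 1 library left out. With 1 library left out, the log2 ratios were 0.15 to 1.33 for Acta1 share of alpha actin reads (exact p = 0.143 to 0.857), 0.53 to 0.98 for Tnni1 share of troponin I reads (exact p = 0.0286 to 0.171), -1.09 to -0.56 for Tpm2 share of tropomyosin reads (exact p = 0.0286 to 0.200) and -0.51 to -0.22 for Lmod3 share of leiomodin reads (exact p = 0.0571 to 0.343). Same-numbered libraries did not deviate together in a common direction (correlations 0.09, -0.50, -0.16 and 0.30), and differently numbered ones had -0.49 to 0.54. These few correlations cannot decide whether the numbers pair libraries. A fit with the replicate number as a block called 16 genes higher and 16 lower, 0 of the 39 among them, and in that pairing 4 pairs cannot give an exact p below 0.125. On the percent scale the same ratios had exact p = 0.714, 0.0571, 0.0857 and 0.143. Counts of 23 to 81 reads limit Tnni1, and 4 libraries per diet limit every other value.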
